A study of Homo sapiens with 4 samples.

Results

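The target genes of canonical Wnt signaling described here are *AXIN2*, *NKD1*, *NOTUM*, *RNF43*, *ZNRF3*, *LGR5*, *ASCL2*, *TCF7*, *MYC* and *CCND1*. They are 10 of the 25006 genes that could be named on the array, and were taken by gene symbol through the RefSeq accession of each probe. No value entered that rule, though the genes were chosen with earlier results of these data known. All of their 15 probes were used, 1 probe for each of 5 genes and 2 probes for each of the other 5. The expression microarrays compared HML58-3 cells given mock treatment, DAC, OR-2003 or OR-2100, to ask which genes came up when DNA methylation was reduced. HML58-3 is a line derived from HCT116 colon cancer cells with a luciferase reporter that is off while its promoter is methylated, and all 4 cultures carried it. DAC, decitabine, is a cytidine analog that is built into DNA and traps the DNA methyltransferases, and OR-2003 and OR-2100 are prodrugs of DAC. Each drug was given at 1 μM on day 1, and RNA was collected on day 5 for 1 single-colour Agilent array per condition. With 1 array each, no difference has a replicate check and no test between conditions could be run.

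In canonical Wnt signaling, a complex of APC, axins and GSK3 marks β-catenin for destruction, and a Wnt ligand at a Frizzled and LRP receptor stops this. β-catenin then enters the nucleus, binds the TCF/LEF factors on DNA and switches on target genes. Many of these targets are inhibitors of the pathway itself, and others are genes of intestinal stem cells or of cell growth. The pathway keeps up the stem cells of the colon crypt and is switched on in most colon cancers. HCT116 cells are known to carry an activating mutation of *CTNNB1*, the gene of β-catenin, and an intact *APC*.

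Levels are log2 intensities counted from the 75th percentile of all gene probes on the same array, which is 0, and they are compared between arrays for 1 probe, never between probes. Of the 58200 gene probes, between 31601 and 33282 were well above background on an array, and 0 gene spots were saturated. The scanner software put the slope of the spike-in controls at 0.899 on the mock array and between 0.913 and 0.955 on the drug arrays. The spread between spots of 1 probe had a median SD of 0.062 at levels of 0 or more, 0.11 from -3 to 0 and 0.32 under -3, so that dim probes are the least precise. The error given with a difference is technical. It combines the scanner software's error on both arrays or, for the probes with 10 spots, the SD over spots, and holds no spread between cultures. Where the dimmer of 2 arrays did not measure a probe well above background, the fold is a lower bound. It is taken against the lowest level well above background on that array, -4.29 with mock, or against the signal of the probe itself if that was higher. As a check of the treatment, the *UCHL1* probe, whose gene is methylated in these cells, was at least 1907-fold higher with each drug. A panel of 12 housekeeping genes had 0 genes that differed 2-fold. Its median log2 difference was -0.18 with DAC, -0.16 with OR-2003 and -0.32 with OR-2100. Of the epithelial markers, *KRT8*, *KRT18*, *KRT19*, *CDX2*, *EPCAM* and *CDH1* were well above background on every array. *EPCAM* was lower by 1.46 to 1.52 and *CDH1* by 1.09 to 1.25 on the log2 scale with the drugs. *KRT8*, *KRT18*, *KRT19* and *CDX2* were higher by 0.15 to 0.59, within 2-fold. *KRT20* and *VIL1* were well above background with drugs only. *KRT20* was at least 7.0-fold and *VIL1* at least 1.37-fold higher with each drug. Of 7 markers of blood, endothelial and fibroblast cells, 3 were well above background on the mock array, 3 others with each drug but not with mock, and 1 with OR-2100 alone. The part of these markers in the values of the Wnt target genes was not tested, and in bulk RNA fewer cells of a type and less RNA per cell cannot be told apart.

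Promoter sequences from RefSeq were at hand for *RNF43* and *TCF7* among the 10 genes. They are shown with those of *LEF1* and *DKK1*, both of which were higher with the drugs. *LEF1* is the TCF/LEF gene with the largest difference in these data, and *DKK1* a target gene chosen after its values were seen. TCF/LEF core letters and CpG sites were counted, and their part in any level was not tested. Each sequence is the 250 bases before a transcription start, read 5′ to 3′ on the strand of the gene, in build GRCh38.p14. Capitals mark the TCF/LEF core letters CTTTGA or CTTTGT, which read TCAAAG or ACAAAG on the other strand. *RNF43* at chr17:58417535-58417784 on the minus strand had 4 CpG sites and 1 core match, 90 bases before the start. A second *RNF43* window, chr17:58402722-58402971 on the same strand, had 0 CpG sites and 1 match, 135 bases before its start, and its letters are not shown. *TCF7* has a start after chr5:134115363-134115612 on the plus strand, with 22 CpG sites and 0 matches, and a start after chr5:134123368-134123617, with 1 CpG site and 2 matches. The *TCF7* gene spans chr5:134108218-134148210, so that both windows lie inside it. The start called upstream is thus not the first of the gene, whose window was not at hand. *LEF1* at chr4:108166302-108166551 on the minus strand had 8 CpG sites and 0 matches. *DKK1* at chr10:52314031-52314280 on the plus strand had 18 CpG sites and 3 matches. *TCF7L2*, which was lower with each drug, had windows with 21, 5 and 4 CpG sites and 0, 1 and 0 matches. The letters of the *TCF7L2* windows are not shown.
RNF43: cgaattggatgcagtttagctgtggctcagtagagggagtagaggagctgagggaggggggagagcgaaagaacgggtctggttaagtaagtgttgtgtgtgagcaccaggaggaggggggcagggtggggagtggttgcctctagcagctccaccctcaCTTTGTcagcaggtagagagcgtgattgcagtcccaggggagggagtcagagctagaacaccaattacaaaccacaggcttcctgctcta
TCF7, upstream start: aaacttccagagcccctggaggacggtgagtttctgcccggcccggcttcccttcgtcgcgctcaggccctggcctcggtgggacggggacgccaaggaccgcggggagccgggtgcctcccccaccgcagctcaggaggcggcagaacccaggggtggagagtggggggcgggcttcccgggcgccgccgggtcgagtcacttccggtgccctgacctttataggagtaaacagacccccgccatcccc
TCF7, downstream start: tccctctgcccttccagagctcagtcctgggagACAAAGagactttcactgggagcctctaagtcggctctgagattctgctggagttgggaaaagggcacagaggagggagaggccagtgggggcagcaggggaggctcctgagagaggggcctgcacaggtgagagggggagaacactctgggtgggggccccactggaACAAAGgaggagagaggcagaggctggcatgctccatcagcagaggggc
LEF1: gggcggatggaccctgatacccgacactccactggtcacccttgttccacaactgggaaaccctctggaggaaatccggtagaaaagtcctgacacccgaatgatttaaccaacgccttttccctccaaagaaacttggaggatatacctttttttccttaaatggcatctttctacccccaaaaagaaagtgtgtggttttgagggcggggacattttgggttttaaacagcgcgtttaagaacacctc
DKK1: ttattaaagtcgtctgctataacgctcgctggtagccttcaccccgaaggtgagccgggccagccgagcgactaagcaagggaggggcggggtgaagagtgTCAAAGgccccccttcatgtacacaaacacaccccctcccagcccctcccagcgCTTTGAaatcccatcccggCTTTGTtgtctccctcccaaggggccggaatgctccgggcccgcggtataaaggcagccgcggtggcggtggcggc
Of all 35116 promoter windows of this length, from 27305 genes, 22.79% held at least 1 of these core matches and 205, or 0.584%, held 3 or more. The median window had 11 CpG sites. A match is a run of letters, not a measured binding site, and methylation was not measured on these arrays.

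With each drug, 3 of the 9 Wnt target genes that were measured were higher than with mock by 2-fold or more, and these were *AXIN2*, *NKD1* and *ASCL2* with every drug. None of the 9 was 2-fold lower, and 6 lay within 2-fold. *LGR5* was not well above background on any array. Over all genes, 15.8% were at least 2-fold higher with DAC, 16.2% with OR-2003 and 15.8% with OR-2100, and 11.7%, 11.2% and 14.1% were at least 2-fold lower, in the same order. For each of the 3 drugs at once, 13.7% of genes were higher and 8.7% lower. The 3 higher genes of 9 stand beside that background of 13.7%, and with so few genes the count is a description. The comparisons share the mock array, so that their 3 counts are not independent. The median log2 difference of the 9 genes was 0.35 with DAC, 0.28 with OR-2003 and 0.33 with OR-2100, beside -0.13, -0.11 and -0.17 over all genes tested. These medians were the same with *ASCL2* set at its bound, which is still the highest of the 9 values and so could not move them. They were 0.13, 0.047 and 0.038 with normexp, a background correction described with *NKD1*.

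**Figure D1:**
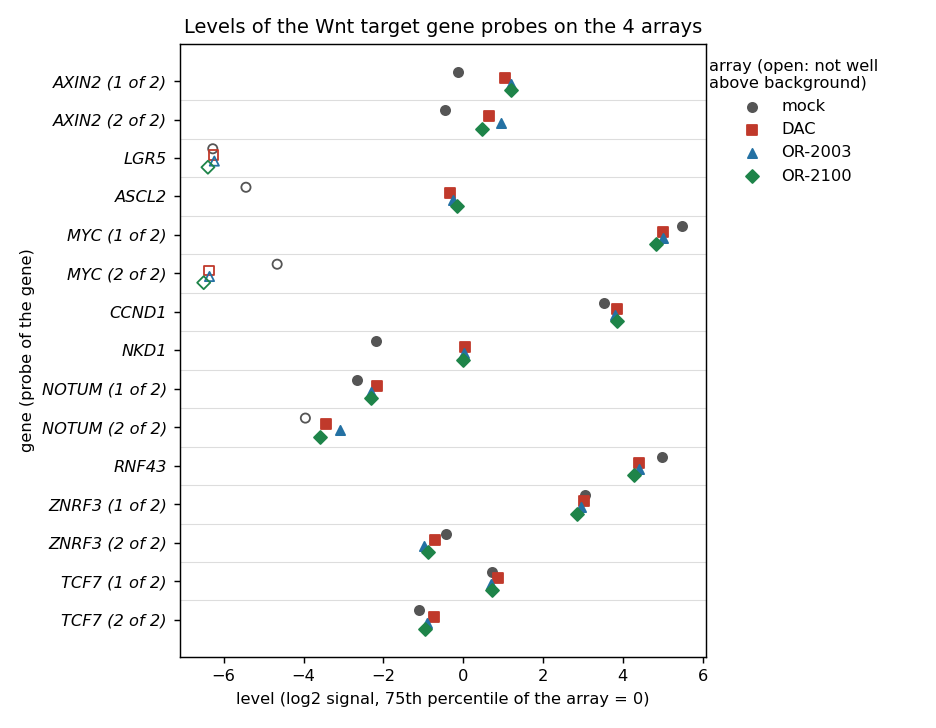
Level of each of the 15 probes of the Wnt target genes (rows) on the mock, DAC, OR-2003 and OR-2100 arrays, as log2 signal with the 75th percentile of the array at 0. Open symbols are probes not well above background, and levels of different probes are not comparable. The 3 drug symbols lie close together in most rows, and are to the right of mock for *AXIN2*, *ASCL2* and *NKD1* and to its left for *MYC* (probe 1) and *RNF43*.

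Among the feedback inhibitors inside the cell, *AXIN2* and *NKD1* were higher. AXIN2 is a scaffold of the destruction complex and is widely used as a readout of Wnt signaling. Its brighter probe, A_23_P148015, was at -0.12 on the mock array and at 1.05, 1.20 and 1.20 with the drugs. The 3 drug arrays, always given in the order DAC, OR-2003, OR-2100, lay together, and all were above mock. The log2 differences were 1.17 ± 0.20, 1.32 ± 0.20 and 1.32 ± 0.20 (technical error), or 2.26, 2.50 and 2.50-fold. The other probe, A_24_P298027, went from -0.45 to 0.64, 0.94 and 0.48, a difference of 1.09, 1.39 and 0.92. Both probes thus moved the same way, and only the dimmer one with OR-2100, at 1.90-fold, fell short of 2-fold. In each comparison between 13.4% and 14.1% of genes had a difference as high as that of *AXIN2* or higher.

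NKD1 binds Dishevelled and damps the signal behind the receptor. Its probe was at -2.18 on the mock array and at 0.03, 0.01 and 0.00 with the drugs. The levels on the 3 drug arrays lay within 0.03 of each other, less than the technical error of 0.145 on each. These arrays are of different drugs and are not replicates, and all 3 share the 1 mock array. The log2 difference was 2.22 ± 0.22, 2.20 ± 0.22 and 2.19 ± 0.22, or 4.65, 4.59 and 4.56-fold. It rests on a mock intensity of 33.5, beside 180, 168 and 176 with the drugs, and is sensitive to how background is removed. With normexp background correction, which adds 50 to every signal and draws dim probes together, the differences were 1.04, 1.03 and 1.12, still past 2-fold. In the main setting, 9.0%, 9.14% and 9.23% of genes were as high or higher.

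NOTUM is a secreted enzyme that strips the lipid from Wnt ligands. Its brighter probe was dim on every array, at -2.65 with mock and -2.16, -2.30 and -2.32 with the drugs. The differences of 0.49 ± 0.24, 0.35 ± 0.25 and 0.33 ± 0.24 were larger than their technical error, and were 0.037, 0.047 and 0.038 with normexp. The other probe was dim with mock, below the limit for a fold, and was at least 1.44, 1.82 and 1.30-fold higher. The brighter probe of *NOTUM* thus showed no 2-fold difference, and the dimmer one gives a bound only.

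RNF43 and ZNRF3 are ubiquitin ligases of the cell membrane that clear Frizzled receptors, and neither was higher with a drug. *RNF43* was bright on all arrays, at 4.97 with mock and 4.41, 4.41 and 4.28 with the drugs. It was lower by 0.57 ± 0.20, 0.56 ± 0.20 and 0.70 ± 0.20, or 1.48, 1.48 and 1.62-fold. The 3 drug values lay under mock by more than the technical error, but 26.4%, 25.3% and 23.3% of all genes were as low or lower. The brighter probe of *ZNRF3* was at 3.04, 3.02, 2.96 and 2.86 with mock, DAC, OR-2003 and OR-2100, with differences within the technical error of 0.20. The other *ZNRF3* probe was lower by 0.28, 0.55 and 0.46 on the log2 scale. The sign of the small difference of the brighter probe turned when the percentile was taken over bright probes only, with quantile normalization or, for DAC, with normexp, and it has no settled direction.

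Of the genes that mark intestinal stem cells, *ASCL2* was higher with each drug and *LGR5* could not be measured. ASCL2 is a basic helix-loop-helix factor of the crypt base stem cells. Its probe had an intensity of 3.50 on the mock array, not well above background, and of 140 to 157 on the drug arrays. On the log2 scale it was at -5.44 with mock and at -0.33, -0.25 and -0.16 with the drugs. The probe was at least 15.5, 16.4 and 17.4-fold higher, the largest difference of the 9 genes. With normexp the log2 differences were 1.63, 1.67 and 1.70, so that the direction held and the size depended on the background correction.

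LGR5 is a receptor for R-spondins and the best known marker of crypt stem cells. Its only probe had intensities of 1.97, 2.31, 2.21 and 2.09 with mock, DAC, OR-2003 and OR-2100, and was not well above background on any array. No fold can be given for it, and a change below the limit of the array would not have been seen. TCF7 is a TCF/LEF factor that is itself a Wnt target and often acts as a brake. Its brighter probe was at 0.72 with mock and 0.88, 0.70 and 0.71 with the drugs, and the difference lay within its technical error of 0.20 with each. The other *TCF7* probe was 0.37, 0.19 and 0.14 higher. For OR-2003 and OR-2100 the sign of the brighter probe turned under bright-percentile scaling and under quantile normalization. The mean of both probes was also of the other sign than the brighter probe for these drugs, so that *TCF7* was not shown to move.

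The growth genes *MYC* and *CCND1* have probes with 10 spots, and the smallest technical errors of the 10 genes. MYC drives cell growth and ribosome production. Its bright probe was at 5.49 with mock and at 5.00, 5.01 and 4.82 with the drugs. All drug arrays were lower, by 0.49 ± 0.08, 0.48 ± 0.08 and 0.67 ± 0.08 (SD over spots, combined over both arrays), or 1.41, 1.39 and 1.59-fold. Among all genes 29.7%, 29.0% and 24.4% were as low or lower. The other *MYC* probe was not well above background on any array and gives no fold.

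CCND1, cyclin D1, takes cells out of the G1 phase. It was at 3.52 with mock and at 3.87, 3.80 and 3.85 with the drugs. The differences were 0.35 ± 0.08, 0.28 ± 0.09 and 0.34 ± 0.08, or 1.27, 1.21 and 1.26-fold. *CCND1* and *MYC* thus lay on opposite sides of mock on all 3 drug arrays, each within 2-fold, and the signs of both held under every scaling run. With median scaling, the *CCND1* difference for OR-2003 was 0.057, smaller than its technical error.

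The 3 drugs were compared with each other at the same dose and time, in 3 pairs, as a description with no test. Over the 17547 genes well above background on all 3 drug arrays, 14 differed 2-fold between OR-2003 and DAC, 24 between OR-2100 and DAC and 50 between OR-2100 and OR-2003. None of the 9 Wnt target genes did so in any pair. Their differences ran from -0.19 for *TCF7* to 0.15 for *AXIN2* between OR-2003 and DAC. Between OR-2100 and DAC they ran from -0.17 for *MYC* to 0.16 for *ASCL2*, and between OR-2100 and OR-2003 from -0.19 for *MYC* to 0.09 for *ASCL2*. Each of these values lay within the 5th to 95th percentile of all genes for its pair, which was -0.25 to 0.30, -0.33 to 0.33 and -0.36 to 0.31. The level of *MYC* was at its lowest with OR-2100. Its SD over spots was 0.037 with DAC, 0.051 with OR-2003 and 0.039 with OR-2100. With 1 culture per drug, this difference of *MYC* was not tested. That no gene stood apart does not show that the drugs act alike.

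The other parts of the pathway were read from 5 lists of 110 genes, of which 108 had a named probe and 96 or 97 were measured with each drug. Of these, 18 were 2-fold higher and 13 lower with DAC, 19 and 14 with OR-2003, and 16 and 14 with OR-2100. With all 3 drugs, 16 were higher and 12 lower, on a median log2 difference of -0.03, 0.01 and 0.00. The shares of the 5 lists together are close to the background of all genes, and nothing is read from them. That background is 15.8%, 16.2% and 15.8% higher and 11.7%, 11.2% and 14.1% lower, and it also stands beside each single list below. Single lists hold few genes and can lie further from it, and their counts are a description. With the median of all probes set to 0, the split with OR-2003 was 14 higher and 19 lower, and under the percentile of bright probes the counts were 24 and 11, 22 and 11, and 23 and 12. Over all genes, the share of higher among called genes was 57.6%, 59.1% and 52.9%, and 69.7%, 71.0% and 66.0% with the percentile of bright probes, where the median of all genes rose to 0.064, 0.094 and 0.057. With median scaling that share was 49.8%, 45.1% and 48.1%, and the median was -0.25, -0.33 and -0.26.

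At the receptors, 16 of 17 genes were measured, with 2 higher and 2 lower with each drug and a median of -0.31, -0.26 and -0.37. The Frizzled receptors bind Wnt ligands. *FZD9* rose from -0.41 to 1.17, 1.38 and 1.21, or 3.01, 3.46 and 3.08-fold. *FZD2* fell from 2.30 to 0.58, 0.47 and 0.54, a change of 3.28, 3.55 and 3.38-fold, and *FZD6* fell from 2.99 to 1.94, 1.78 and 1.79. With DAC, *FZD6* did not reach 2-fold under the percentile of bright probes, quantile normalization or normexp, nor with OR-2100 under the first of these. *FZD8* was not well above background with mock and at least 4.84, 3.80 and 4.22-fold higher, but by 0.64, 0.55 and 0.53 on the log2 scale with normexp, under 2-fold.

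Of the 25 ligands and secretion genes, 18 or 19 were measured. With the drugs 6, 7 and 4 were higher, beside 15.8%, 16.2% and 15.8% of all genes. Lower were 2, 3 and 3, beside 11.7%, 11.2% and 14.1%. The higher share of this list was above that of all genes, which was not tested. *WNT11*, a ligand best known for signaling without β-catenin, rose from -1.63 to 2.03, 1.98 and 2.30, or 12.7, 12.2 and 15.3-fold. *WNT16* went the other way, from 3.14 to -0.16, -0.16 and -0.40, or 9.84, 9.89 and 11.7-fold lower. Both calls held under every setting run for them. *WNT1* and *WNT5B*, not well above background with mock, were at least 4.64 and at least 6.25-fold higher with each drug, and neither reached 2-fold with normexp. The other *WNT1* probe was not well above background on any array.

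Of 14 cytoplasmic genes measured, 1 was higher and 1 lower. *CTNNB1* and, of the destruction complex, *APC*, *AXIN1* and *GSK3B* lay within 2-fold, unlike *AXIN2* above. *CTNNB1* was at 5.22 with mock and at 5.40, 5.47 and 5.23 with the drugs, a difference of 0.18, 0.25 and 0.01 by a probe with 10 spots. *APC* differed by 0.57, 0.51 and 0.54, *AXIN1* by 0.24, 0.30 and 0.38 and *GSK3B* by 0.29, 0.20 and 0.27. These are small differences, and those of *CTNNB1* with OR-2100 and *GSK3B* with OR-2003 turned sign with median scaling. The other *APC* probe was not well above background on any array, and the mean of both probes was lower than mock with DAC and OR-2100. *TNKS*, a tankyrase that marks axins for destruction, fell from 1.17 to -0.67, -0.58 and -0.64, or 3.58, 3.37 and 3.53-fold. *TNKS2*, another tankyrase, did not fall and was higher by 0.30, 0.31 and 0.25, within 2-fold. *APC2*, a relative of *APC*, was 2.22, 2.05 and 2.17-fold higher, and under 2-fold with normexp and, for OR-2003, with median scaling.

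All 17 nuclear genes were measured, with 3 higher with each drug, 3, 2 and 3 lower, and a median of -0.16, -0.21 and -0.35. The TCF/LEF factors, which bind DNA at the target genes, moved both ways. *LEF1*, whose promoter letters are shown above, was not well above background with mock, at -6.58, and reached 0.41, 0.45 and 0.66 with the drugs. It was at least 25.9, 26.7 and 30.9-fold higher, and by 2.38, 2.37 and 2.62 on the log2 scale with normexp. *TCF7L2*, the TCF/LEF gene best known in colon epithelium, fell from 1.09 to -0.62, -0.69 and -0.63, or 3.26, 3.43 and 3.28-fold. All 3 *TCF7L2* probes were lower, with mean differences from -1.28 to -1.73. *TCF7L1* differed by 0.25, 0.19 and 0.12, and with OR-2003 its sign turned with median scaling. So of the 4 TCF/LEF genes, 1 was higher and 1 was lower with every drug, while *TCF7* and *TCF7L1* lay within 2-fold, and these calls held under every setting run for them. *TLE4*, a corepressor of these factors, was 3.07, 2.84 and 2.16-fold higher from a dim mock level, and *PYGO1*, a coactivator bound to β-catenin through BCL9, was 2.68, 2.18 and 2.39-fold higher. Neither reached 2-fold with normexp, nor did *TLE4* for OR-2100 with quantile normalization, or *PYGO1* for OR-2003 with quantile normalization or median scaling.

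Among 36 further target genes, 30 or 31 were measured, and 6 were higher with each drug and 5, 6 and 5 lower, with a median of 0.04, -0.06 and 0.06. *EDN1*, the gene of endothelin-1, rose from -2.66 to 1.23, 1.32 and 1.41, or 14.9, 15.8 and 16.8-fold, and its other probe was 3.76, 4.38 and 4.18-fold higher. *FGF20*, a growth factor, was at least 6.59, 7.26 and 9.95-fold higher, and reached 2-fold under normexp with OR-2100 only. *SMOC2*, a secreted matrix protein of crypt stem cells, was at least 4.75, 5.22 and 5.16-fold higher and *CEMIP*, a hyaluronan-binding protein, at least 2.28, 2.23 and 2.50-fold lower, both under 2-fold with normexp, as was *CEMIP* for OR-2100 with the mean of its probes. The other probes of *FGF20*, *SMOC2* and *CEMIP* were not well above background on any array. *DKK1*, a secreted antagonist that binds LRP6 and a Wnt target, rose from 3.57 to 5.57, 5.45 and 5.54, or 3.99, 3.66 and 3.90-fold, and was named after its values were seen.

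**Figure D2:**
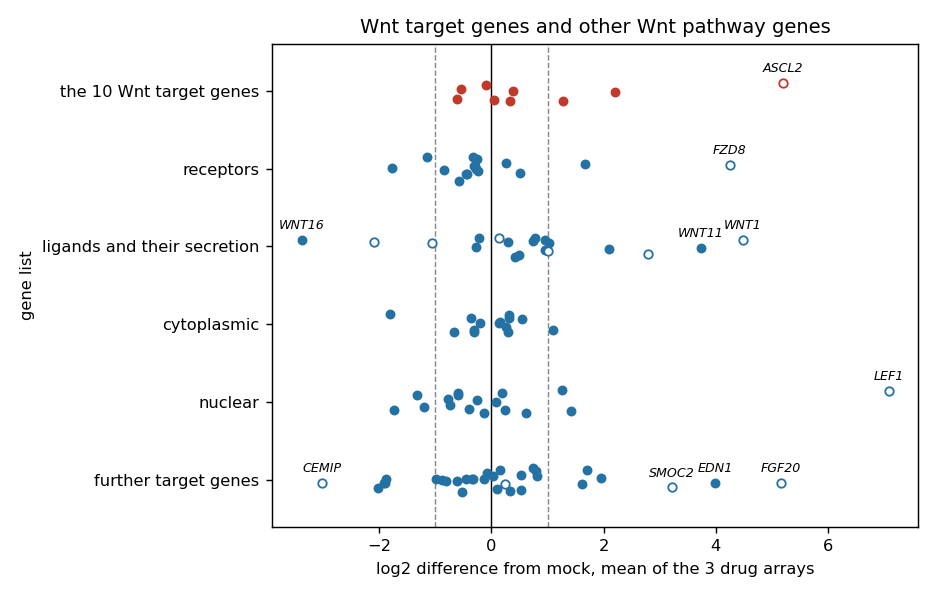
Mean log2 difference of the 3 drug arrays from mock for each measured gene (points), for the Wnt target genes in red and the 5 other pathway lists in blue. Open points were not well above background on at least 1 array, where the value is the measured difference and not a bound. Dashed lines mark 2-fold and names are given where the mean is 3 or more in size, with *LEF1* highest and *WNT16* lowest.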

How the data were processed

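Total RNA of HML58-3 cells was measured on 4 single-colour Agilent arrays, 1 for each of mock, DAC, OR-2003 and OR-2100. Spot intensity as deposited is background-subtracted by Feature Extraction 12.1.0.3, per the file headers, and a series table held the same values. No column was without a sample, and no build is given in the sources used here.

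Control spots and spots marked as non-uniform or as outliers, 52 to 98 on an array, were left out. Spots of 1 probe were averaged as log2 intensity, and each array was shifted to put its 75th percentile over gene probes at 0, following the methods of the study. A probe counted as well above background where the software called a share of more than 0.5 of its kept spots so. RefSeq tables named 34892 probes for 25006 genes by accession. A gene was counted by its probe with the highest mean level, as at least 2-fold higher or lower by its measured difference, where that probe was well above background on the mock or the drug array.

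The members, pathway lists and rules were chosen with earlier results of these data known. Named were the 10 members, the genes of each other list called the same way with all 3 drugs, at most 4 by mean difference, and *CTNNB1*, *APC*, *AXIN1*, *GSK3B*, *TCF7L2*, *TCF7L1* and *LEF1*. The counting was tested on simulated data. The alternatives were scaling, background correction, spot handling, threshold, probe filter and probe averaging. Python 3.11.15, numpy 2.4.6, pandas 2.3.3, R 4.3.3 and limma 3.58.1, the last for normexp alone, were used. The number of arrays limits the precision.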

Additional observations from a re-analysis of the deposited data

How the results depend on the processing

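The calls of *AXIN2*, *NKD1* and *ASCL2* as 2-fold higher held under every scaling, background and spot setting run for them, though *ASCL2* has no value once dim probes are left out. At 4-fold, *AXIN2* dropped out. No called difference of a named gene changed sign. A called difference is 2-fold or more, and the scalings moved values by less than that, so that this is a weak check. Across the 11 alternatives, 1031 values stayed within their range and 259 moved. The 1031 include values that could not move, so that the count is no measure of how far the results held. Among them are all values from the series table, and those from the median over spots for probes without repeated spots. No value has a replicate check, and leaving out a replicate was not possible. No paired analysis was possible because there was a single array for every condition. Depth in the sense of signal over background limits *ASCL2*, *NOTUM* and *LGR5* most. The series table held the same values and tests nothing.

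With the mean over probes, 1 Wnt target gene was lower with each drug, beside 11.1%, 10.6% and 13.5% of all genes. It was *MYC*, at -1.10, -1.09 and -1.25, through its probe not well above background. At 1.5-fold, 2 were lower with OR-2100, beside 28.1% of all genes. The median of the target genes was 0.13, 0.047 and 0.038 with normexp for DAC, OR-2003 and OR-2100, 0.057 for OR-2003 with median scaling, and 0.55 for OR-2100 with the percentile of bright probes. The cause was not tested.

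Among the other pathway genes, the number higher with the 3 drugs, in this order, was 8, 7 and 8 with normexp and 9, 9 and 9 at 4-fold. It was 12 for OR-2003 and 10 for OR-2100 with dim probes left out, which tests fewer genes, and 27 for OR-2100 at 1.5-fold. The number lower was 21, 22 and 25 at 1.5-fold, 4, 2 and 4 at 4-fold, and 9 for OR-2003 with normexp. Over all genes, the share higher was 6.52%, 6.54% and 6.53% with normexp and 9.68%, 9.88% and 9.98% at 4-fold. With dim probes left out it was 8.73% for OR-2003 and 8.35% for OR-2100, and 21.7% for OR-2100 at 1.5-fold. The share lower was 25.6%, 24.4% and 28.1% at 1.5-fold, 1.76%, 1.63% and 2.4% at 4-fold, and 5.07% for OR-2003 with normexp. Nothing is read from these counts.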

Other observations

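Further Wnt target genes and regulators outside the naming rule also differed by 2-fold or more with every drug, and were picked after their values were seen. *CD44*, a hyaluronan receptor and stem cell marker, was bright and fell from 7.14 to 5.18, 5.27 and 5.28 in the same order of drugs as above, or 3.89, 3.64 and 3.61-fold. The other *CD44* probe was lower by 0.96 on the log2 scale in the mean of the 3 drugs, under 2-fold. *MET*, the receptor of hepatocyte growth factor, fell from 6.83 to 4.94, 4.93 and 4.91, or 3.73, 3.74 and 3.80-fold. *VEGFA*, a growth factor for blood vessels, fell from 2.91 to 1.03, 1.03 and 1.02. The matrix protease gene *MMP7* fell from -0.83 to -2.77, -2.56 and -3.22, and reached 2-fold with normexp only for OR-2100.

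*BAMBI*, a decoy receptor of TGF-β signaling, rose from 3.31 to 5.05, 5.07 and 4.89, or 3.34, 3.40 and 2.99-fold. *RSPO4*, an R-spondin that strengthens Wnt signals, rose from -1.64 to 0.44, 0.37 and 0.56, or 4.22, 4.03 and 4.59-fold. *L1CAM*, an adhesion molecule, was 2.79, 2.97 and 3.49-fold higher and under 2-fold with normexp. *CTNNBIP1*, an inhibitor that keeps β-catenin from TCF factors, was 2.21, 2.29 and 2.39-fold lower by its brighter probe and under 2-fold by the mean of its probes. It was also under 2-fold with DAC and OR-2003 under the percentile of bright probes, and with DAC under quantile normalization. The calls of *CD44*, *MET*, *VEGFA*, *BAMBI* and *RSPO4* held in every setting run for them at the 2-fold threshold.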
